A study of Rattus norvegicus with 4 samples.

Results

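The Wnt receptors Fzd1 and Fzd2 were followed on 4 Affymetrix rat expression arrays of Rat1 cells, a rat fibroblast line that grows without limit in culture. The members were all probe sets whose single gene symbol in the platform annotation is Fzd1, Fzd2 or Ctnnb1, and they were chosen on their average differences and folds on these same arrays, so that these are a description of the members and carry no test. This gave 2 of the 8740 probe sets that are not manufacturer controls: L02529_at for Fzd1 and L02530_at for Fzd2. For Ctnnb1, encoding β-catenin, 0 probe sets carried the symbol, alone or among several, so that its mRNA was not analysed here.

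Each array held RNA of 1 condition. Rat1-Omomer cells, stably infected with a retrovirus for Omomer (the Myc-binding miniprotein Omomyc fused to the tamoxifen-responsive part of the oestrogen receptor), were sampled at 90 min and at 0 min of serum. Rat1-control cells, infected with the control virus, were sampled at the same times. Both lines had been kept 48 h in 0.1% serum, were given 10% serum at 0 min, and received 4-OHT, the ligand that switches Omomer on; the labels place it in the starvation medium and the methods a few hours before serum. All 4 arrays thus come from cells exposed to 4-OHT, and the comparison of lines is one of 2 infected populations. For 2 samples, a transfection field contradicts the title, source and description, which were followed. With 1 array per condition there is no SD between cultures and no test of any difference.

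Frizzled proteins are cell surface receptors for secreted Wnt proteins. Together with the co-receptors Lrp5 and Lrp6 they engage Dishevelled, which halts the complex of Axin, Apc, Gsk3 and casein kinase that marks β-catenin for destruction; stabilized β-catenin then works in the nucleus with TCF and LEF factors. Frizzled receptors can also signal through calcium and through small GTPases of the planar polarity route. In fibroblasts, Wnt signalling takes part in proliferation, matrix formation and wound repair.

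The level of a probe set is its average difference, a linear intensity: how much brighter its matching probes are, on average, than their mismatch partners. The authors had scaled the arrays to nearly the same trimmed mean. The noise had an SD of 524, estimated from the values below 0 of all arrays, and a floor of 1048 was set at 2 times this SD. A ratio with 1 value under the floor is a bound, and no ratio was taken with both under it. The Rat1-Omomer 90 min array stood apart: its own noise would set a floor of 1228, against 1090 for Rat1-control at 90 min, and 15.9% of its probe sets from 5 series of expressed sequence tags (IDs starting with rc_AA79, rc_AA80, rc_AA85, rc_AA87 or rc_AA89, called the 5 EST series) fell short of the Rat1-control 0 min value by 3-fold or more, against 2.03% of all others. Neither receptor is measured by the 5 EST series. Fibroblast markers were above the floor for 11 of 12 genes on every array, the exception being Pdgfrb. Their summed level was 612878 in Rat1-Omomer and 538213 in Rat1-control cells at 90 min, against 451887 and 468110 at 0 min, and its part in the folds of the receptors was not tested. Of 16 measured marker genes of epithelial, endothelial, blood, neuronal, muscle and liver cells, 3 were above the floor on the Rat1-Omomer and 2 on the Rat1-control array at 90 min, and 2 and 3 at 0 min. In RNA of whole cultures, less mRNA in every cell and fewer cells with it cannot be told apart.

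Fzd1, one of the Frizzled receptors that can act through β-catenin, had an average difference of 1716 in Rat1-Omomer and 1707 in Rat1-control cells at 90 min. At 0 min it was 4802 in Rat1-Omomer and 6908 in Rat1-control cells. Both 90 min arrays lay below both 0 min arrays. The values at 90 min were 3.27 and 3.26 noise SDs above 0, and that of Rat1-control cells at 0 min was 13.2. On its array, Fzd1 stood at the 70.1 percentile of probe sets in Rat1-Omomer and the 68.8 percentile in Rat1-control cells at 90 min, against the 83.7 and the 88.1 percentile at 0 min.

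Fzd2, a receptor known both for β-catenin and for calcium signalling, had an average difference of 1058 in Rat1-Omomer and 2977 in Rat1-control cells at 90 min. At 0 min it was 9785 in Rat1-Omomer and 11825 in Rat1-control cells. The order of the arrays was the same as to time, with both 90 min values below both 0 min values, and here the 90 min arrays were also apart from each other. The value in Rat1-Omomer cells at 90 min was 2.02 noise SDs above 0, just above the common floor of 1048 and under the 1228 that the noise of that array alone would set. On its array, Fzd2 stood at the 61.6 percentile in Rat1-Omomer and the 78.0 percentile in Rat1-control cells at 90 min, against the 91.4 and the 92.8 percentile at 0 min.

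**Figure D1:**
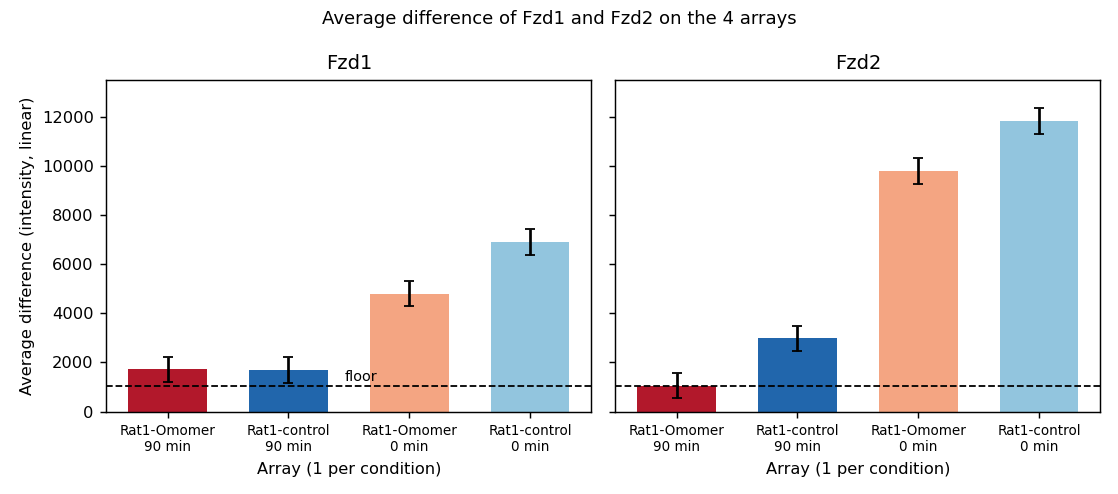
Average difference (intensity, linear scale) of Fzd1 and Fzd2 on the 4 arrays, 1 per condition, with bars of 1 noise SD (524) that cover array noise and not cultures; the dashed line is the floor of 1048. Both receptors are lower on both 90 min arrays than on both 0 min arrays, and Fzd2 in Rat1-Omomer cells at 90 min (1058) sits at the floor.

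In Rat1-control cells, both receptors were about as much lower at 90 min of serum as each other. Fzd1 was 4.05-fold lower than at 0 min, a log2 fold of -2.02, and would lie between 2.86-fold and 6.28-fold if each value moved by 1 noise SD. Fzd2 was 3.97-fold lower, a log2 fold of -1.99, with the corresponding range from 3.23-fold to 5.03-fold. Of all 8740 probe sets, 0.824% were lower by 3-fold or more in this comparison, and 0.758% of those outside the 5 EST series; since the receptors were chosen with these values known, nothing is read from these shares. Among the 3985 probe sets with a fold, Fzd1 had the rank 28 and Fzd2 the rank 31 from the lowest. Where a gene had 2 probe sets that exceeded the floor throughout, the SD of the log2 fold within a gene was 0.29 across 302 genes, which is smaller than either log2 fold. Each receptor has 1 probe set, so that its own fold has no such check.

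In Rat1-Omomer cells, the receptors differed from each other. Fzd2 was 9.25-fold lower at 90 min than at 0 min of the same cells, a log2 fold of -3.21, with a range from 5.85-fold to 19.3-fold when each value moved by 1 noise SD. The upper end rests on a value of 534, which is under the floor, so that the size of the fold is loosely fixed on that side. With the floor of 1228 in place of its value it was at least 7.97-fold lower. Fzd1 was 2.80-fold lower, a log2 fold of -1.48, with a range from 1.91-fold to 4.47-fold, and did not reach the 3-fold threshold that the methods use. At least 3-fold lower were 4.65% of all probe sets, and 1.72% of those outside the 5 EST series. Among all 4209 folds, that of Fzd2 had the rank 25 from the lowest and that of Fzd1 the rank 454. Among the 3243 outside these series, a grouping made after the data were seen, the ranks were 2 and 145. Folds with a value at the floor are bounds, so that the true order among the lowest is not settled. The SD of the log2 fold within a gene was 0.69 on these arrays.

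The serum responses of the lines can be set side by side without a shared array. The log2 fold of Fzd2 was -3.21 in Rat1-Omomer and -1.99 in Rat1-control cells, a difference of -1.22, and that of Fzd1 was -1.48 in Rat1-Omomer and -2.02 in Rat1-control cells, a difference of 0.53. The 2 differences thus had opposite signs. That of Fzd1 lay in the 0 min arrays, at 4802 in Rat1-Omomer and 6908 in Rat1-control cells. At 90 min Fzd1 was nearly equal, at 1716 and 1707 in that order. The median difference was 0.27 for the 2600 probe sets that exceeded the floor on each array, and the SD of the difference within a gene was 0.73, so that the difference of Fzd1 was smaller than this SD and that of Fzd2 larger. Neither was tested, and with a floor of 4 noise SDs the difference of Fzd2 was -0.23.

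Among the 72 probe sets at least 3-fold lower in Rat1-control cells at 90 min, the receptors included, 20 reached 3-fold also in the Rat1-Omomer cells, at 90 min against their own 0 min array, Fzd2 being one of them. Outside the 5 EST series this was 8 of 53. Over all probe sets 4.65% were so in Rat1-Omomer cells, and 1.72% outside the 5 EST series. These 53 were selected on a low fold in Rat1-control cells, and a smaller fold in cells not used to select them can follow from that selection, so that nothing is read from the median of -0.55 that their log2 folds had in Rat1-Omomer cells. Of the 53, 4 were lower by a greater log2 fold in Rat1-Omomer than in Rat1-control cells, Fzd2 among them. The same selection bears on this count, and Fzd2 was chosen with its values known, so that nothing is read from the count.

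**Figure D2:**
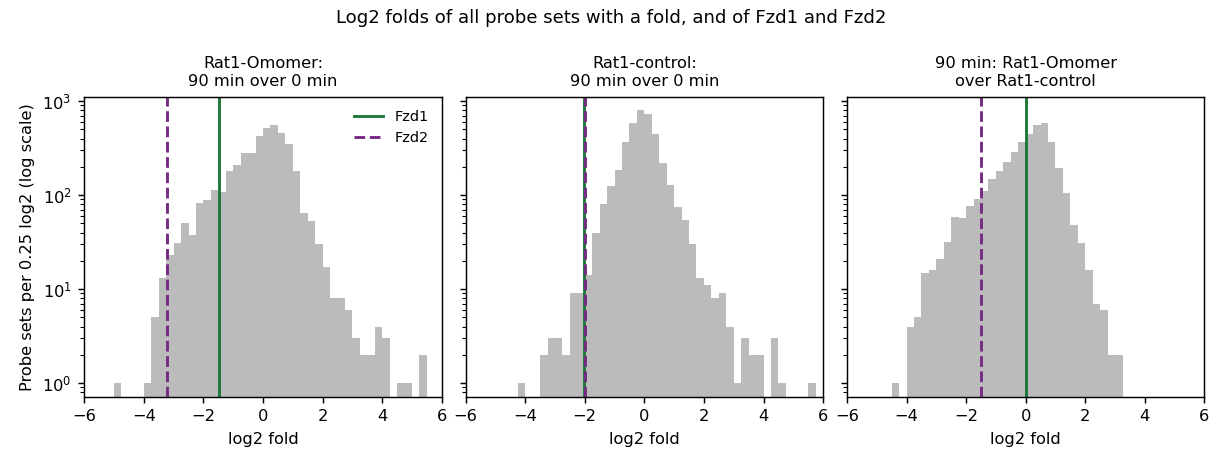
Distribution of the log2 folds of all probe sets with a fold (grey, number per bin of 0.25 on a log axis), with the folds of Fzd1 (solid line) and Fzd2 (dashed line), for 90 min over 0 min in Rat1-Omomer and in Rat1-control cells and for Rat1-Omomer over Rat1-control cells at 90 min. The lines coincide near -2 in Rat1-control cells, and stand apart in Rat1-Omomer cells at -3.21 for Fzd2 and -1.48 for Fzd1.

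Set directly against Rat1-control cells at 90 min, Fzd2 was 2.81-fold lower in Rat1-Omomer cells, under the 3-fold threshold, with a range from 1.55-fold to 6.56-fold that spans it. Fzd1 had nearly the same value in both, 1716 in Rat1-Omomer and 1707 in Rat1-control cells, and the range of its log2 fold of 0.01 reached from -0.90 to 0.92. Lower by 3-fold or more were 3.97% of all probe sets in this comparison, and 1.49% outside the 5 EST series. Fzd2 had the rank 382 from the lowest of all 4048 folds, and the rank 122 of 3156 outside these series.

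Before serum, both receptors were lower in Rat1-Omomer than in Rat1-control cells by less than 3-fold. The value of Fzd1 in Rat1-Omomer cells was 69.5% of that in Rat1-control cells, a log2 fold of -0.52 with a range from -0.80 to -0.26. That of Fzd2 was 82.7%, a log2 fold of -0.27 with a range from -0.42 to -0.13. The SD within a gene was 0.28 here, about as large as the log2 fold of Fzd2. At least 3-fold lower were 0.229% of all probe sets.

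The methods took Rat1-control cells at 0 min as the reference for Rat1-Omomer cells at 90 min, a comparison that differs both in line and in time. By it, Fzd2 was 11.2-fold lower, with a range from 7.14-fold to 23.1-fold, and Fzd1 was 4.03-fold lower, with a range from 2.85-fold to 6.24-fold. At least 3-fold lower were 4.81% of all probe sets. With the array's own floor of 1228 in place of its value, Fzd2 was lower by at least 9.63-fold, and by at least 5.64-fold with a floor of 4 noise SDs. Among all 4220 folds, Fzd2 had the rank 11 and Fzd1 the rank 238 from the lowest. Outside the 5 EST series the ranks were 1 and 59 among 3257 folds. This order is not settled for Fzd2, whose 1058 is under that array's own floor.

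The RefSeq promoter table (build GRCr8) held Fzd1 and not Fzd2. The 250 bases before the start of Fzd1, chr4:30264824-30265073 on the plus strand, are shown because Omomyc is described as acting on promoter E-boxes; capitals mark the single match to the motifs searched.
Fzd1: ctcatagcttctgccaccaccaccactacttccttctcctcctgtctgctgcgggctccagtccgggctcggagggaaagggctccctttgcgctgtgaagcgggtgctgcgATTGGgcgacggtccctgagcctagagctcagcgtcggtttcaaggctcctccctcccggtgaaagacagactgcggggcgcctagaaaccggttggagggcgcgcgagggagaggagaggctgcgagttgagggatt
The motifs were the E-box CACGTG, the general E-box CANNTG, which contains the first, the NF-Y motif CCAAT, the GC box GGGCGG and the TCF motif CTTTGA, each on both strands. The window held 1 CCAAT, on the minus strand at position -138 from the start, and 0 matches to each of the others. Of 33469 promoter windows of this length, 5.59% held CACGTG, 65.5% CANNTG, 34.02% CCAAT, 30.5% GGGCGG and 13.9% CTTTGA. A match is not a binding site, and the absence of a match says nothing about binding elsewhere.

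The other genes of the pathway were taken from 8 lists, and 64 of 150 listed genes had a probe set. Counting folds of 3 or more among their 122 probe sets, 3 were lower and 7 higher at 90 min than at 0 min in Rat1-control cells, where 0.824% and 0.881% of all probe sets were (6 higher of 108 outside the 5 EST series, against 0.929% of all there). In Rat1-Omomer cells against their own 0 min array, 9 were lower and 6 higher, where 4.65% and 1.4% of all were. Outside the 5 EST series this was 5 and 6 of 108, where 1.72% and 1.64% were. Between the lines, 10 were lower and 2 higher at 90 min in Rat1-Omomer cells (3.97% and 1.03% of all), and 1 and 0 before serum (0.229% and 0.114%). For Rat1-Omomer cells at 90 min over Rat1-control cells at 0 min, 11 were lower and 6 higher (4.81% and 1.35%). Of the 122, 77 had a fold in Rat1-Omomer and 75 in Rat1-control cells. The median log2 fold of these was 0.19 in Rat1-Omomer and 0.13 in Rat1-control cells, beside 0.09 and -0.07 for all probe sets with a fold. Most of the called probe sets belonged to the list of Wnt target genes, genes described as targets in other systems. In Rat1-control cells, the 7 higher and the 3 lower all belonged to it. The lists were chosen with earlier results of these data known, so that no excess over the shares of all probe sets is read from these counts.

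Among ligands, 0 of 21 genes had a probe set, and of 10 secreted antagonists Sfrp4 was measured and lay under the floor on all 4 arrays. Of 14 other receptors and co-receptors, 2 were measured. Smo, the Hedgehog signal transducer related to Frizzled, had 2743 in Rat1-Omomer against 1884 in Rat1-control cells at 90 min, and 2606 against 2383 at 0 min. Its values stayed within 1.46-fold of each other in each of the 5 comparisons. Ryk, a Wnt receptor of the tyrosine kinase type, had 1439 in Rat1-Omomer against 3022 in Rat1-control cells at 90 min, and 3175 against 2923 at 0 min. The low value of Ryk stands on the Rat1-Omomer 90 min array and comes from the 5 EST series. Neither had the pattern of Fzd1 and Fzd2 in Rat1-control cells, where Smo was 1.26-fold lower and Ryk 1.03-fold higher at 90 min.

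In the cytoplasm, 14 of 28 genes were measured. Of 22 probe sets, 4 were lower and 2 higher by 3-fold or more at 90 min in Rat1-Omomer cells, where 4.65% and 1.4% of all were. In Rat1-control cells both counts were 0, where 0.824% and 0.881% of all were. Outside the 5 EST series the Rat1-Omomer counts were 1 and 2 of 19, where 1.72% and 1.64% were. Axin1, the scaffold of the destruction complex, had 8241 in Rat1-Omomer against 4209 in Rat1-control cells at 90 min, and 2261 against 3526 at 0 min. It was 3.64-fold higher at 90 min in Rat1-Omomer and 1.19-fold higher in Rat1-control cells. Gsk3a, a kinase that phosphorylates β-catenin, had 11258 and 6676 at 90 min, and 7328 and 6088 at 0 min, in Rat1-Omomer and Rat1-control cells in that order. Csnk2b, the regulatory subunit of casein kinase 2, was lower by at least 5.55-fold at 90 min in Rat1-Omomer and 1.10-fold lower in Rat1-control cells. Subunits of the phosphatase PP2A went apart by probe set. By a probe set of the 5 EST series, Ppp2r5a of Rat1-Omomer cells was 5.22-fold lower at 90 min. Ppp2r1a was 4.74-fold lower by such a probe set and 1.66-fold higher by one outside them, both in Rat1-Omomer cells. Csnk2a1, a catalytic subunit of casein kinase 2, was lower in Rat1-Omomer cells by at least 3.54-fold with its brightest probe set, of the 5 EST series. With another it was higher by at least 3.62-fold, and with a further one lower by at least 1.28-fold. The brightest probe sets of Csnk1d and Csnk1a1, casein kinases of the Wnt route, changed by under 1.5-fold with serum in either line. At 90 min, Csnk1d had 8402 and 3585, and Csnk1a1 8386 and 4686, in Rat1-Omomer and Rat1-control cells in that order. Another probe set of Csnk1d, outside the 5 EST series, was 2.23-fold higher at 90 min in Rat1-Omomer and 1.71-fold lower in Rat1-control cells. Its values at 90 min were 6903 in Rat1-Omomer and 1815 in Rat1-control cells, more than 3-fold apart.

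**Figure D3:**
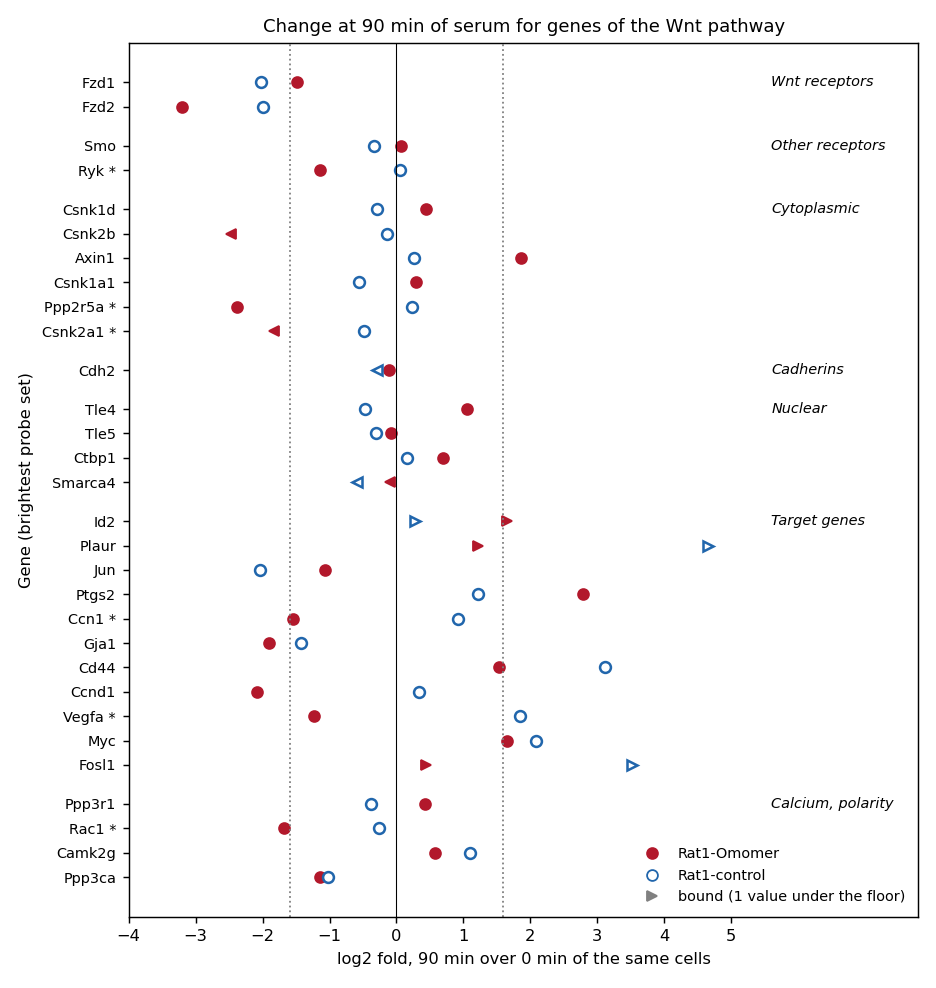
Log2 folds of 90 min over 0 min of the same cells for Fzd1, Fzd2 and the named genes of the pathway by their brightest probe set, in Rat1-Omomer (filled red) and Rat1-control cells (open blue), 1 array per condition. Triangles are bounds with 1 value under the floor, asterisks mark probe sets of the 5 EST series, and dotted lines mark 3-fold. Both receptors stand to the left in both lines. The cytoplasmic and nuclear genes stay under 3-fold in Rat1-control cells, where 0.824% of all probe sets were lower and 0.881% higher by 3-fold or more.

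Among cadherins and other catenins, the adhesion partners of β-catenin, 4 of 12 genes were measured and Cdh2 alone was above the floor. Cdh2, N-cadherin, had 1846 in Rat1-Omomer against 747 in Rat1-control cells at 90 min, and 1996 against 1282 at 0 min, so that its value in Rat1-control cells at 90 min is under the floor. Of nuclear partners, 5 of 19 genes were measured and 0 of 9 probe sets reached 3-fold in any of the 5 comparisons. Over all probe sets, at most 4.81% were lower and at most 1.4% higher by 3-fold in any of them. Ctbp1, a co-repressor, had 39654 in Rat1-Omomer against 28377 in Rat1-control cells at 90 min, and 24496 against 25426 at 0 min. Tle4, a Groucho co-repressor of TCF factors, was 2.08-fold higher at 90 min in Rat1-Omomer and 1.38-fold lower in Rat1-control cells. Tle5 differed by less than 1.3-fold in both lines by its brightest probe set. Another probe set from the same accession was 1.80-fold lower at 90 min in Rat1-Omomer and 1.33-fold lower in Rat1-control cells. One of the 5 EST series was lower by at least 1.49-fold in Rat1-Omomer and higher by at least 1.25-fold in Rat1-control cells. Smarca4, the ATPase of SWI/SNF complexes, was under the floor on both 90 min arrays, at 954 in Rat1-Omomer and 625 in Rat1-control cells.

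Of 23 Wnt target genes, 19 were measured, by 41 probe sets. By 3-fold or more, 4 were higher and 4 lower at 90 min in Rat1-Omomer cells, where 1.4% and 4.65% of all probe sets were. In Rat1-control cells the counts were 7 and 3, where 0.881% and 0.824% of all were. Probe sets of the same gene were counted separately. The 3 lower in Rat1-control cells were all of Jun, and Vegfa, Ptgs2 and Ccnd1 were also counted by several probe sets. Axin2, a direct target of β-catenin and TCF in many tissues, was under the floor on all 4 arrays, with values between -24 and 103. Lgr5, another such target, was likewise under it, between 331 and 487. The targets more than 2-fold lower at 90 min in both lines by their brightest probe set were Jun, an AP-1 subunit, and Gja1, the gap junction protein connexin 43. Jun was 2.09-fold lower in Rat1-Omomer and 4.10-fold lower in Rat1-control cells by its brightest probe set. Gja1 was 3.76-fold lower in Rat1-Omomer and 2.69-fold lower in Rat1-control cells. Among those higher in both were Myc (3.14-fold in Rat1-Omomer and 4.25-fold in Rat1-control cells), Cd44, a hyaluronan receptor (2.89-fold in Rat1-Omomer and 8.63-fold in Rat1-control cells), and Ptgs2, a cyclooxygenase (6.87-fold in Rat1-Omomer and 2.32-fold in Rat1-control cells). Plaur, the urokinase receptor, was higher at 90 min by at least 2.32-fold in Rat1-Omomer and by at least 25.1-fold in Rat1-control cells. Fosl1, an AP-1 subunit, was higher by at least 1.36-fold in Rat1-Omomer and by at least 11.4-fold in Rat1-control cells. Id2 was higher by at least 3.15-fold in Rat1-Omomer and by at least 1.21-fold in Rat1-control cells. Its values at 90 min were 3306 in Rat1-Omomer and 1268 in Rat1-control cells, a 2.61-fold difference, and both 0 min values were under the floor. Ccnd1, cyclin D1, was 4.24-fold lower in Rat1-Omomer and 1.27-fold higher in Rat1-control cells by its brightest probe set, whereas another probe set made from the same accession was 1.04-fold higher in Rat1-Omomer and 1.14-fold higher in Rat1-control cells. A further probe set of Ccnd1, also outside the 5 EST series, was lower by at least 3.27-fold in Rat1-Omomer and 1.24-fold higher in Rat1-control cells. The last with a fold, likewise outside them, was 1.58-fold higher in Rat1-Omomer and 1.20-fold lower in Rat1-control cells, so that the probe sets of Ccnd1 disagree in direction. Whether the Omomer transcript, derived from Myc, adds to the signal of the Myc probe set was not tested.

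In the calcium and polarity routes, 20 of 24 genes were measured. Of 43 probe sets, 1 was lower and 0 higher by 3-fold or more at 90 min in Rat1-Omomer cells, where 4.65% and 1.4% of all were. In Rat1-control cells both counts were 0, where 0.824% and 0.881% of all were. The 1 lower was Rac1, a small GTPase, measured by a probe set of the 5 EST series. It was 3.20-fold lower in Rat1-Omomer and 1.20-fold lower in Rat1-control cells. Ppp3ca, the catalytic subunit of calcineurin, was 2.21-fold lower in Rat1-Omomer and 2.04-fold lower in Rat1-control cells. Its values were 2191 and 2857 at 90 min, and 4846 and 5814 at 0 min, in Rat1-Omomer and Rat1-control cells in that order, with both 90 min arrays below both 0 min arrays. Camk2g, a calcium-dependent kinase, was 1.49-fold higher in Rat1-Omomer and 2.15-fold higher in Rat1-control cells.

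Patterns were compared by the Euclidean distance between the 3 log2 folds against Rat1-control cells at 0 min, among 1558 bright named probe sets. The 5 nearest to Fzd1 measured Jun (distance 0.66), Tcp11l2 (0.68), Gja1 (0.70), the transcription factor Nfix (0.74) and the serum response gene Ier3 (0.77). Of these, Tcp11l2 is from the 5 EST series, and its value in Rat1-control cells at 90 min, 670, is under the floor. Jun had 8098 in Rat1-Omomer against 5155 in Rat1-control cells at 90 min, and 16922 against 21117 at 0 min. Nfix had 3346 in Rat1-Omomer against 3833 in Rat1-control cells at 90 min, and 8419 against 10330 at 0 min. The 5 nearest to Fzd2 measured Bnip3l (0.43), a mitochondrial protein of the Bcl-2 family, Svil (0.52), an actin-binding protein, Kank2 (0.61), the transcription factor Maf (0.68) and the lysyl oxidase Loxl1 (0.75). All 5 are probe sets of the 5 EST series, which hold 346 of the 1558 probe sets, or 22.2%, whereas Fzd2 is not; 2 of them, Bnip3l and Svil, were under the floor in Rat1-Omomer cells at 90 min. Outside the 5 EST series the nearest to Fzd2 was Irf1, at a distance of 1.09, with 1034 in Rat1-Omomer against 1121 in Rat1-control cells at 90 min, and 7278 against 9063 at 0 min, its Rat1-Omomer value at 90 min being under the floor. The receptors were 1.49 apart from each other, and other probe sets were nearer to each: Fzd2 had the rank 53 from Fzd1, and Fzd1 the rank 35 from Fzd2.

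**Figure D4:**
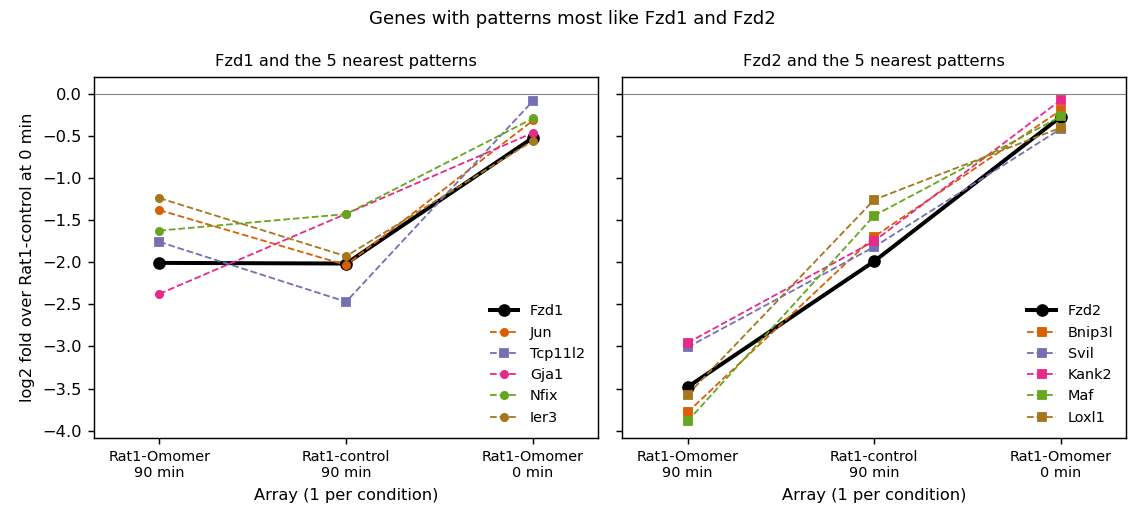
Log2 folds over Rat1-control cells at 0 min on the 3 other arrays for Fzd1 and Fzd2 (black) and the 5 probe sets with the nearest pattern (dashed; squares are probe sets of the 5 EST series). Fzd1 is near -2 on both 90 min arrays, whereas Fzd2 is at -3.48 in Rat1-Omomer and -1.99 in Rat1-control cells, and its 5 nearest patterns are all from the 5 EST series.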

How the data were processed

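The deposited values are 1 intensity per probe set and array, for which the authors ran MAS 4 at default settings (average differences, negative values kept). From these, ratios of values floored at 2 noise SDs (1.4826 times the median size of the values below 0) were computed; ranges moved each value by 1 noise SD, without the floor, and cover noise of the array only. The threshold was the 3-fold of the methods, which rests on the MAS 4 Fold Change and not on this ratio. Probe sets were named by the annotation of the platform where it gave 1 symbol (7006 probe sets), updated by gene ID through RefSeq (GRCr8). With 1 array per condition no test was run, and precision is limited by the number of arrays.

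The members and gene lists were chosen with earlier results of these data known. Named genes were, for each list and by the brightest probe set, the highest and lowest fold at 90 min, in Rat1-Omomer over Rat1-control cells and in Rat1-control cells over 0 min, and all genes differing by 3-fold or more in any comparison; the 5 nearest patterns required a mean level of 3 times the floor or more. Sfrp4, Gsk3a, Axin2, Lgr5, Ppp2r1a, Irf1 and second probe sets were added after their values were seen, as was the grouping into the 5 EST series. Scripts were tested on simulated data. The enrichment, PCR and chromatin work of the study was not analysed here. Python 3.11.15, numpy 2.4.6 and pandas 2.3.3 were used.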

Additional observations from a re-analysis of the deposited data

Results flagged for a closer look

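Of the named genes of the pathway, 11 had folds of opposite sign at 90 min over 0 min in the lines by their brightest probe set, and are listed for that reason. The share of all probe sets with opposite signs was not computed, so that nothing is read from the number. Some signs rest on changes under the noise SD of 524. These were Ryk (2923 to 3022), Tle4 (1520 to 1103) and Smo (2383 to 1884) in Rat1-control cells, and Smo (2606 to 2743) in Rat1-Omomer cells. Ppp2r1a was added after its values were seen. The log2 fold in Rat1-Omomer cells minus that in Rat1-control cells was -3.08 for Vegfa, an angiogenic growth factor, -2.61 for Ppp2r5a, -2.46 for Ccn1, a matricellular protein, and -1.19 for Ryk, all measured by the 5 EST series, and -2.42 for Ccnd1. It was 1.52 for Tle4, 0.96 for Ppp2r1a, 0.86 for Csnk1a1, 0.81 for Ppp3r1, the regulatory subunit of calcineurin, 0.74 for Csnk1d and 0.41 for Smo. Each line has 1 array per time and the difference was not tested. The SD of such a difference within a gene was 0.73. Vegfa was 2.36-fold lower at 90 min in Rat1-Omomer and 3.59-fold higher in Rat1-control cells, and a second probe set outside the 5 EST series was at least 1.09-fold higher in Rat1-Omomer and at least 3.04-fold higher in Rat1-control cells. Fzd1 and Fzd2 were lower in both lines and are not among the 11.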

How the results depend on the processing

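Of 69 member folds under the alternatives, 65 moved by less than the SD within a gene, 4 moved by more and 0 changed sign at 3-fold or more; each fold kept its side of the 3-fold threshold. The 4 were set by a floor of 4 noise SDs, which lies above the values it replaces and leaves bounds: log2 folds for Fzd2 of -2.50 (Rat1-Omomer at 90 min over Rat1-control at 0 min), -0.51 (Rat1-Omomer over Rat1-control at 90 min) and -2.22 (Rat1-Omomer, 90 over 0 min), and for Fzd1 of -1.72 (Rat1-control, 90 over 0 min). The difference of the serum response of Fzd2 was then -0.23. With that floor Fzd1 has no fold between the lines at 90 min, and under median scaling this fold was -0.01. Scalings moved the median log2 fold by at most 0.07 over all probe sets with a fold, and by at most 0.09 over those above the floor on every array.

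Counts of pathway probe sets moved as follows. Counts over all probe sets moved with the settings too, so that nothing about the pathway is read from these. For Rat1-Omomer at 90 min over Rat1-control at 0 min, 11 lower became 6 with a floor of 4 noise SDs, 7 with 1 probe set per gene and 6 outside the 5 EST series, and 6 higher became 14 without a floor. Over all probe sets, 420 lower became 203, 289 and 142 in that order, and 118 higher became 477 without a floor. Outside the series these were 6 of 108 in the pathway and 2.03% of all. For Rat1-control at 90 over 0 min, 3 lower became 1 with a floor of 4 noise SDs, 5 without a floor and 1 with 1 probe set per gene, and 7 higher became 13 without a floor and 12 by the MAS 4 difference form. For the lines at 0 min, 1 lower became 0 with a floor of 4 noise SDs, 5 without a floor, 3 by the difference form and 0 with 1 probe set per gene, and 0 higher became 2 without a floor and 1 by the difference form. For the lines at 90 min, 10 lower became 17 without a floor and 6 outside the 5 EST series, and 2 higher became 7 without a floor, 4 by the difference form and 0 with 1 probe set per gene. The 6 were of 108, where 1.49% of all outside the series were lower. For Rat1-Omomer at 90 over 0 min, 9 lower became 4 with a floor of 4 noise SDs, 15 without a floor and 5 outside the series, and 6 higher became 12 without a floor and 10 by the difference form. The 5 were of 108, where 1.72% of all outside the series were lower. Over all probe sets, counts moved by over 1.5 times in 48 of 90 cases, for Rat1-control at 90 over 0 min for instance from 72 lower to 370 without a floor, 156 with a floor of 1 noise SD, 32 with a floor of 4 and 324 by the difference form. Leaving out the 5 EST series was chosen after seeing the data. No paired analysis was possible because the groups of each comparison hold 1 array each and share no more than 1 number; a fit of time with the lines as pairs would take the difference between the lines as its error, and was not run.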
